A study of Mus musculus with 816 samples.

Results

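Interleukin 10 (IL10) given alone to cultured mouse microglia was followed at 24 h in 9 wells and at 72 h in 6 wells. These 15 wells were chosen by their labels (treatment IL10 with no second agent) from 784 culture wells in a series of 816 samples, and no measured value was used to choose them. They were compared with wells of the treatment None, called untreated here, of which there were 40 at 24 h and 25 at 72 h. Wells with IL13 alone (9 at 24 h, 6 at 72 h) and IL4 alone (11 at 24 h) served to show where IL10 differed from other cytokines. The cells were commercial primary microglia from neonatal mice, and the labels give no strain, genotype or sex for them. IL10, IL4 and IL13 had the same labelled dose of 0.00005 µg/µl, and the stimulus was added 4 days after plating. Wells of a group came from shared cell lots (2 at 24 h and 1 other lot at 72 h for IL10), so the p-values measure the spread between wells, which may be technical. Neonatal cells in culture are a limited model of microglia in the brain. A single population per well was measured, so that fewer cells of a type and less RNA per cell cannot be told apart.

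IL10 is an anti-inflammatory cytokine that binds a receptor made of IL10RA and IL10RB on macrophages and microglia. The receptor acts through the kinases JAK1 and TYK2 on the transcription factor STAT3, and SOCS3, a suppressor of cytokine signalling, is among the classic genes that STAT3 switches on. In macrophages the pathway is known for damping the production of TNF, IL1 and IL6 and for changing receptors for antibodies, apoptotic cells and cytokines.

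Levels are read counts scaled to the same library total (CPM), and fold changes are differences in log2(CPM + 1) between IL10 and untreated wells of the same plate, estimated with limma over 106 wells and 12707 genes. A gene was called at a Benjamini-Hochberg adjusted p under 0.05. The depth of the wells ran from 1.003 to 14.995 M reads (median 5.1075), and the IL10 wells had 2.453 to 9.923 M reads at 24 h and 1.212 to 3.714 M reads at 72 h. Of 10 microglial markers, 8 had a median above 5 CPM in the IL10 wells at each time, and the 10 summed to 3170, 4286 and 5829 CPM (lowest, median and highest) at 24 h against 3616, 5804 and 9213 CPM in untreated wells. At 72 h the sum was 4130, 6408 and 7699 CPM with IL10 against 928.2, 3848 and 7085 CPM. Summed over the markers of each other cell type, medians in the IL10 wells were at most 3.26 CPM for neurons, 1.82 CPM for neutrophils and 2.09 CPM for T and B cells, and lay between 2.82 and 74.2 CPM for astrocytes, oligodendrocytes, endothelial cells, fibroblasts and monocytes. Single IL10 wells were higher. The fibroblast gene Col1a1 had 61.3 to 138.3 CPM in those of plate MGm160926A at 24 h, against at most 34 CPM in the other 24 h IL10 wells. Replicate 5 at 72 h had 120.9 CPM for Col1a1, 85.9 CPM for the neuronal gene Gad1 and 65.2 CPM for the astrocyte gene Aldoc. None of the 4 tested fibroblast markers was called at either time. Markers of perivascular macrophages summed to 374.1, 599.5 and 1415 CPM in the IL10 wells at 24 h against 144.5, 300.3 and 469.5 CPM in untreated wells. Mrc1 and Pf4 of that list rose with IL10, and whether a change in cell types has a part in any rise was not tested. Among the IL10 wells at 24 h, profiles correlated with r of 0.7761 to 0.9599 over 5532 genes. At 72 h replicate 5 stood apart, with r of 0.4962 to 0.5327 to the other IL10 wells over 5424 genes.

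Where a well lay on its plate limits the 72 h comparison. Wells are labelled as middle wells or as wells of an edge or corner, called border wells here. On the 2 plates with IL10 wells at 72 h, all 10 untreated wells were border wells, whereas 5 of the 6 IL10 wells were middle wells. The 10 untreated middle wells of that time lay on another plate, MGm160930B. Only 1 IL10 well of that time, the border well of plate MGm161010C, shared its plate with untreated wells of like position (6 border wells). Apart from that well, IL10 and well position cannot be told apart within plates at 72 h. At 24 h, 5 of 9 IL10 wells and 30 of 40 untreated wells were middle wells. For the comparison with untreated wells at 72 h, a second fit with middle wells only and no plate in the model is set beside the first, and this fit was chosen after seeing the data. It compares different plates, so there IL10 cannot be told apart from the plate.

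Socs3 had the largest rise of the named genes at both times. Its gene (ENSMUSG00000053113) lies on chromosome 11 from 117966079 to 117970047 on the minus strand in the GRCm38 annotation. At 24 h the untreated wells had 0, 11.8 and 61.8 CPM (lowest, median and highest) and the IL10 wells had 176, 221 and 234 CPM. At 72 h the corresponding levels were 0, 2.20 and 18 CPM in untreated wells and 136, 175 and 246 CPM in IL10 wells. No IL10 well overlapped the untreated wells at either time, so the measured transcript followed the labels in all 15 wells, including replicate 5 at 72 h. The log2 fold change was 5.16 ± 0.35 (SE) at 24 h (limma, adjusted p = 4.3e-23) and 5.88 ± 0.45 at 72 h (limma, adjusted p = 1e-19). These differed by 0.72 on the log2 scale, which did not pass the test (limma, adjusted p = 0.48). In middle wells the rise was 3.81 at 24 h and 5.18 at 72 h.

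STAT3 dimers are known to bind palindromes of the form TTCNNNGAA. The Socs3 promoter is shown because its gene had the largest rise and because its window holds such a palindrome. The sequence is from RefSeq (GRCm38.p6, chr11:117969317-117969616, minus strand), reaches from 250 bases before the start to 50 bases after it, and has the palindrome in capitals, with its first base 154 bases before the start.
Socs3 promoter: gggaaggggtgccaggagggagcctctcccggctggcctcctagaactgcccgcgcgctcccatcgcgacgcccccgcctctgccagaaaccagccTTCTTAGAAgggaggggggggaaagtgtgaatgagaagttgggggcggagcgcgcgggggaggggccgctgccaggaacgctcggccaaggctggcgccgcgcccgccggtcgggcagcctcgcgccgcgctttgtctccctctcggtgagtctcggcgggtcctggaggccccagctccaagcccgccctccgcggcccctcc

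Of the genes called higher at 24 h, 108 had a promoter window and 14 of those windows (13%) held TTCNNNGAA, which reads the same on both strands. The share was 14% for genes called lower (8 of 57) and 8.27% for all tested genes with a window (733 of 8864). The palindrome was thus as frequent beside genes that fell as beside genes that rose, and a match is a description of letters only. Further examples of called genes are Gcnt2 (chr13:40886508-40886569, plus strand), Fgl2 (chr5:21372607-21372675, plus strand) and Fcgr1 (chr3:96294040-96294108, minus strand), shown with the bases around the palindrome in capitals.
Gcnt2: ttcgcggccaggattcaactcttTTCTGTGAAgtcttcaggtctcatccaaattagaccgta
Fgl2: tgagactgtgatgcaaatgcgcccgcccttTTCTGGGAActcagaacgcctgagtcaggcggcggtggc
Fcgr1: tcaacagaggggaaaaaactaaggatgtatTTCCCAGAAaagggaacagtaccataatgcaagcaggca

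At 24 h IL10 raised more genes than it lowered, and the rises were larger than the falls. The test called 151 genes higher (1.19% of 12707) and 70 lower (0.551%). The split was closer to even on the plates that held both groups, with 288 higher and 257 lower. With only IL10 and untreated wells of 24 h, 174 were higher and 123 lower. In middle wells alone, without plate in the model, 92 were higher (0.761% of 12089) and 39 lower (0.323%). With plate kept in the model, middle wells gave 231 higher (1.91%) and 90 lower (0.744%), although there the 3 IL10 wells of plate MGm160926A are the only ones that share a plate with untreated middle wells. Of the 151 rises, 149 were tested in middle wells and all 149 kept their sign in both fits, with 65 called again without plate and 112 with it. Of the 70 falls, 15 and 36 were called again. The median log2 fold change of all genes was -0.02. In the 15 named rises the IL10 minus untreated difference was positive on each of the 3 plates with both, and in the 10 named falls it was negative on each, as the rule for naming required.

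Il4ra, which encodes the receptor chain shared by IL4 and IL13, was among the largest rises. Untreated wells had 3.93, 25.2 and 54.4 CPM and IL10 wells 87.5, 150 and 233 CPM. All 9 IL10 wells lay above all 40 untreated wells. The log2 fold change was 3.10 ± 0.24 (limma, adjusted p = 9.8e-20), with 3.12, 3.12 and 3.07 on the single plates. On plate MGm160926A all IL10 wells shared library pool MGm160926A1, whose untreated wells had 16.6 to 34.9 CPM. The untreated wells of that plate in pool MGm160926A2 had 3.93 to 20.5 CPM, so the plate value also rests on the mix of pools.

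Genes that were near 0 without a stimulus also appeared. Lrg1, a secreted leucine-rich glycoprotein of the acute-phase response, had 0, 0 and 1.04 CPM in untreated wells and 13, 26.3 and 72.6 CPM with IL10 (log2 fold change 4.68 ± 0.28, limma, adjusted p = 2.9e-27). Ednrb, the endothelin receptor type B, had 0, 0.463 and 6.43 CPM in untreated wells and 13.5, 30.6 and 40.2 CPM with IL10 (3.89 ± 0.45, limma, adjusted p = 9.6e-11). For both genes the groups did not overlap. Nxpe5, of the neurexophilin and PC-esterase domain family, went from 0, 4.02 and 19.6 CPM to 56.7, 83.2 and 139 CPM (3.37 ± 0.45, limma, adjusted p = 3e-08), again with no overlap. Gcnt2, a glucosaminyltransferase that branches surface glycans, rose by 3.03 ± 0.48, although only 5 of its 9 IL10 wells lay above all untreated wells.

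**Figure D1:**
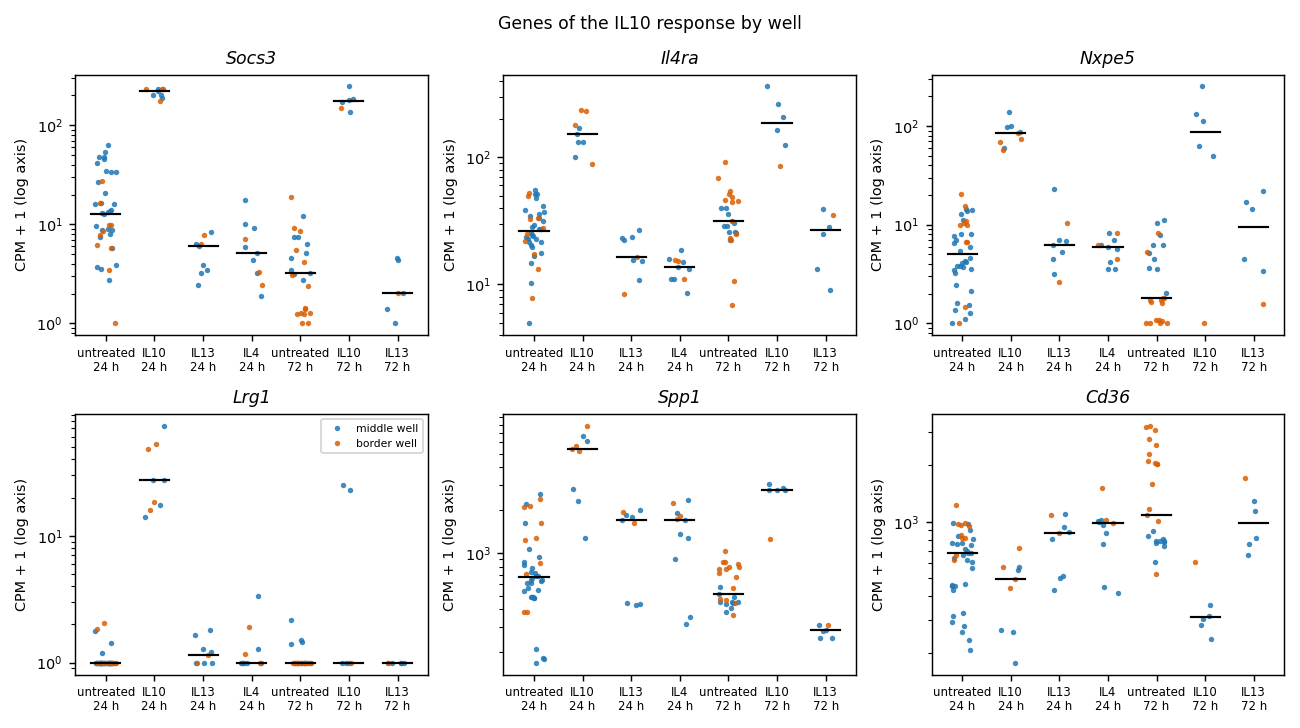
CPM + 1 on a log axis for 6 genes in every well of 7 groups, with middle wells in blue, border wells in orange and the group median as a black line. Socs3 and Il4ra were high in every IL10 well at 24 h, Lrg1 was above 10 CPM in 2 of 6 IL10 wells at 72 h, and Cd36 had its lowest group median with IL10 at 72 h.

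The remaining named rises were Ndrg1, a hypoxia-linked gene (2.38 ± 0.40), the chemokine receptor Ccr1 (2.21 ± 0.36), the membrane protein Ifitm1 (2.20 ± 0.41), the VEGF receptor Kdr (2.18 ± 0.48), the chemokine Ccl12 (2.16 ± 0.41), fibronectin Fn1 (2.15 ± 0.34), the activin subunit Inhbb (2.12 ± 0.30), osteopontin Spp1 (2.04 ± 0.16) and the guanine deaminase Gda (2.04 ± 0.40). Spp1 had 167.9, 673.8 and 2607 CPM in untreated wells and 1263, 5411 and 7856 CPM with IL10, and 7 of 9 IL10 wells lay above all untreated wells. Ifitm1 was the least separated, with 1 of 9 IL10 wells above all untreated wells. The calls of Ifitm1, Kdr and Gda did not pass without plate MGm160926A. Those of Kdr and Ccl12 did not pass in middle wells without plate in the model, and did with it.

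The named falls were smaller and less stable. Hpgd, which degrades prostaglandins, had 33.4, 62.0 and 179 CPM in untreated wells and 13.6, 22.7 and 70.3 CPM with IL10 (-1.38 ± 0.21, limma, adjusted p = 9.5e-07). Arsb, a lysosomal sulfatase, had 77.9, 257 and 485 CPM in untreated wells and 48.4, 87.2 and 143 CPM with IL10 (-1.18 ± 0.24, limma, adjusted p = 0.00057). All 9 IL10 wells lay below the untreated median for Arsb, and 6 of 9 did for Hpgd. Rasgrp3, an activator of Ras proteins (-1.45 ± 0.25), the scavenger receptor Marco (-1.23 ± 0.31) and the VEGF receptor Flt1 (-1.17 ± 0.31) also fell. Of the 10 falls, the call of Hpgd alone held without each plate in turn, and 9 were lost without plate MGm160926A.

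Bmp2 (-1.46 ± 0.41), the inhibitory receptor Siglece (-1.35 ± 0.38), the transcription factor Egr2 (-1.35 ± 0.38) and the cystine transporter Slc7a11 (-1.21 ± 0.35) had adjusted p of 0.041 to 0.043 (limma). Their calls were lost when single IL10 wells were left out, as were those of Flt1 (without replicate 6 or 7), Marco (without replicate 7) and Pkp2, a desmosome protein (-1.11 ± 0.28, without replicate 9). For Egr2 the pooled levels went the other way, since its IL10 median of 43.9 CPM was above the untreated median of 33.6 CPM while each plate gave a negative difference.

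**Figure D2:**
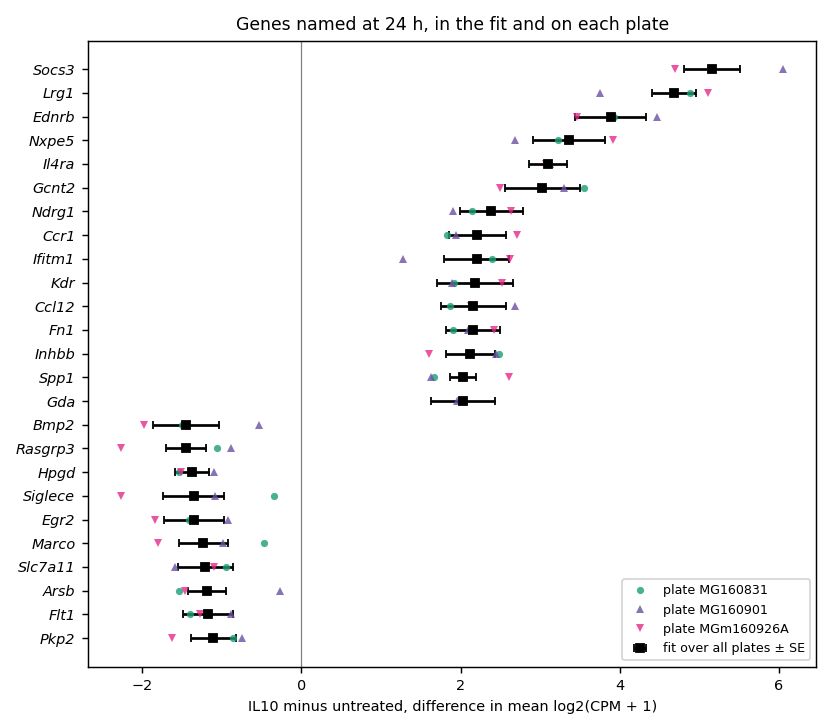
Log2 differences between IL10 and untreated wells at 24 h for the 25 named genes, with the fit and its SE as black squares and the difference on each of 3 plates as coloured marks. The 15 rises are positive and the 10 falls negative on every plate, and falls such as Siglece (-0.35 to -2.27) varied more between plates than Il4ra (3.07 to 3.12).

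Counts in this and the following gene lists at 24 h stand beside 1.19% of all genes called higher and 0.551% lower. In middle wells the shares of all genes were 0.761% and 0.323% without plate in the model, and 1.91% and 0.744% with it. Of the pathway's own components, Socs3 and Stat3 were called. Of 10 tested genes of IL10 reception and signalling, 2 were called higher and 0 lower, with a median log2 fold change of 0.09. Stat3 had 27.6, 68.5 and 136 CPM in untreated wells and 134, 171 and 256 CPM with IL10 (1.21 ± 0.23, limma, adjusted p = 0.00019). In 8 of 9 IL10 wells its level was above all untreated wells. The receptor chains had log2 fold changes of -0.08 ± 0.20 (Il10ra) and -0.14 ± 0.14 (Il10rb), and the kinases 0.24 ± 0.13 (Jak1) and -0.05 ± 0.25 (Tyk2), none of which passed the test. Il10 itself was too low to be tested, with 0, 0.101 and 4.24 CPM in IL10 wells.

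Among genes known to respond to IL10 or STAT3 in macrophages, 10 of 26 were called higher and 1 lower, with a median of 0.68. In middle wells 6 of 25 were higher and 1 lower without plate in the model, and 8 higher and 0 lower with it. Beside Socs3 and Il4ra they included the acute-phase gene Saa3 (1.95 ± 0.35), the atypical inhibitor of NF-kB Bcl3 (1.79 ± 0.31), the sphingosine kinase Sphk1 (1.37 ± 0.33), the corepressor Sbno2 (1.13 ± 0.33), the Fc receptor Fcgr1 (0.84 ± 0.21), Gadd45g (0.82 ± 0.21) and Zfp36, which destabilises cytokine mRNA (0.81 ± 0.17). The TNF receptor Tnfrsf1b fell (-0.58 ± 0.16).

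Inflammatory cytokines and chemokines had 3 of 22 members called higher and 0 lower, with a median of -0.13. The 3 were the chemokines Ccl12, Ccl4 (1.09 ± 0.23) and Cxcl16 (0.75 ± 0.17). In middle wells 0 were higher and 1 lower without plate in the model, with a median of -0.57, and 3 were higher and 1 lower with it. Tnf had 26.2, 89.8 and 410 CPM in untreated wells and 13.3, 36.7 and 64.8 CPM with IL10. All 9 IL10 wells were below the untreated median, yet the within-plate difference of -0.74 ± 0.34 did not pass the test (limma, adjusted p = 0.43). Il1b, at 0, 3.37 and 5.86 CPM with IL10 against 0, 9.22 and 65.3 CPM, likewise did not pass (-0.43 ± 0.35, limma, adjusted p = 0.81). No member of the type I interferon list (20 tested) was called in either direction by limma, with a median of -0.22 and 1 higher and 0 lower at an unadjusted p under 0.05, and 1 of 10 genes of MHC class II and costimulation, the cathepsin Ctss, was called higher. That list had 3 members higher in middle wells without plate in the model and 2 with it, and 0 lower.

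Receptors for antibody and for cell debris moved in both directions. Of 5 Fc gamma receptor genes, 2 rose, namely Fcgr1 and the inhibitory Fcgr2b (0.77 ± 0.19), but in middle wells 0 were called without plate in the model and 1 with it. Of 19 scavenger and phagocytic receptors, the mannose receptor Mrc1 (1.15 ± 0.30) and Msr1 (0.53 ± 0.14) rose, and Marco, the lipid receptor Cd36 (-0.92 ± 0.16) and the beta-glucan receptor Clec7a (-0.75 ± 0.15) fell. In middle wells 1 was higher (Mrc1) and 1 lower (Marco) without plate in the model, against 3 higher and 2 lower with it. The 3 chains of complement C1q were the called members among 13 complement genes, at 0.56 ± 0.11 (C1qa), 0.80 ± 0.13 (C1qb) and 0.83 ± 0.14 (C1qc). For C1qa the unadjusted levels overlapped throughout, with medians of 1364 CPM in untreated and 1356 CPM in IL10 wells, so the difference appears only within plates. In middle wells without plate in the model none of the C1q chains passed (0.11, 0.56 and 0.00).

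Genes that mark microglia in plaque-bearing brains, the disease-associated list, had 4 of 19 members higher and 2 lower, with a median of -0.03. Spp1 and the fatty acid binding protein Fabp5 led the rises. Fabp5 had 169.9, 260.1 and 457.7 CPM in untreated wells and 628.4, 1016 and 1288 CPM with IL10, with no overlap (1.76 ± 0.15, limma, adjusted p = 8.2e-17). The chemokine Ccl6 (1.25 ± 0.14) also had no overlap, and cathepsin Ctsl rose by 0.56 ± 0.11. The growth factor Igf1 fell from 596.8, 1294 and 1831 CPM to 559.3, 758.1 and 863.9 CPM (-0.79 ± 0.10, limma, adjusted p = 8e-09), with all 9 IL10 wells below the untreated median. Clec7a was the other member that fell.

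Homeostatic microglial genes had 2 of 16 members higher, among them Fcrls (1.05 ± 0.30), and 1 lower, the TGF-beta receptor Tgfbr1 (-0.81 ± 0.20). Their median was -0.13. In middle wells without plate in the model 1 of 15 was higher and 2 were lower, with a median of -0.37. The pooled Fcrls levels overlapped, with medians of 523.8 CPM in untreated and 526.1 CPM in IL10 wells. P2ry12 (0.26 ± 0.38) and Tmem119 (0.19 ± 0.35) did not pass the test. The metallothioneins Mt1 (1.15 ± 0.21) and Mt2 (1.31 ± 0.31) rose and the ferritin chain Fth1 (-0.56 ± 0.14) fell among 12 genes of iron, heme and metal handling. In the lysosome list 3 of 20 members were higher and 1 lower, led by cathepsin Ctsc (1.13 ± 0.16), whose IL10 wells all lay above the untreated wells. In middle wells the lysosome list had 1 higher without plate in the model and 5 with it, and 0 lower in both. Glycolysis and hypoxia genes had 3 of 19 higher (Ndrg1, Ldha and Pkm) and 0 lower. Cholesterol genes had 0 of 20 higher and 1 lower, the efflux pump Abcg1 (-0.96 ± 0.22, not called in middle wells without plate in the model). Of 11 Toll-like receptor genes and partners, the adaptor Myd88 rose (0.89 ± 0.26), and of 14 NF-kB genes only Bcl3 was called. With 1.19% of all genes higher and 0.551% lower, 0 or 1 call in such a list is near the share of all genes. Chemokine and cytokine receptors had 4 of 28 higher, among them Ccr1, Il4ra and the common beta chain Csf2rb (1.01 ± 0.14), and 2 lower, namely Tnfrsf1b and Tgfbr1. None of the 23 tested cell cycle genes was called at 24 h by limma, with a median of -0.05 and 1 higher and 0 lower at an unadjusted p under 0.05.

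**Figure D3:**
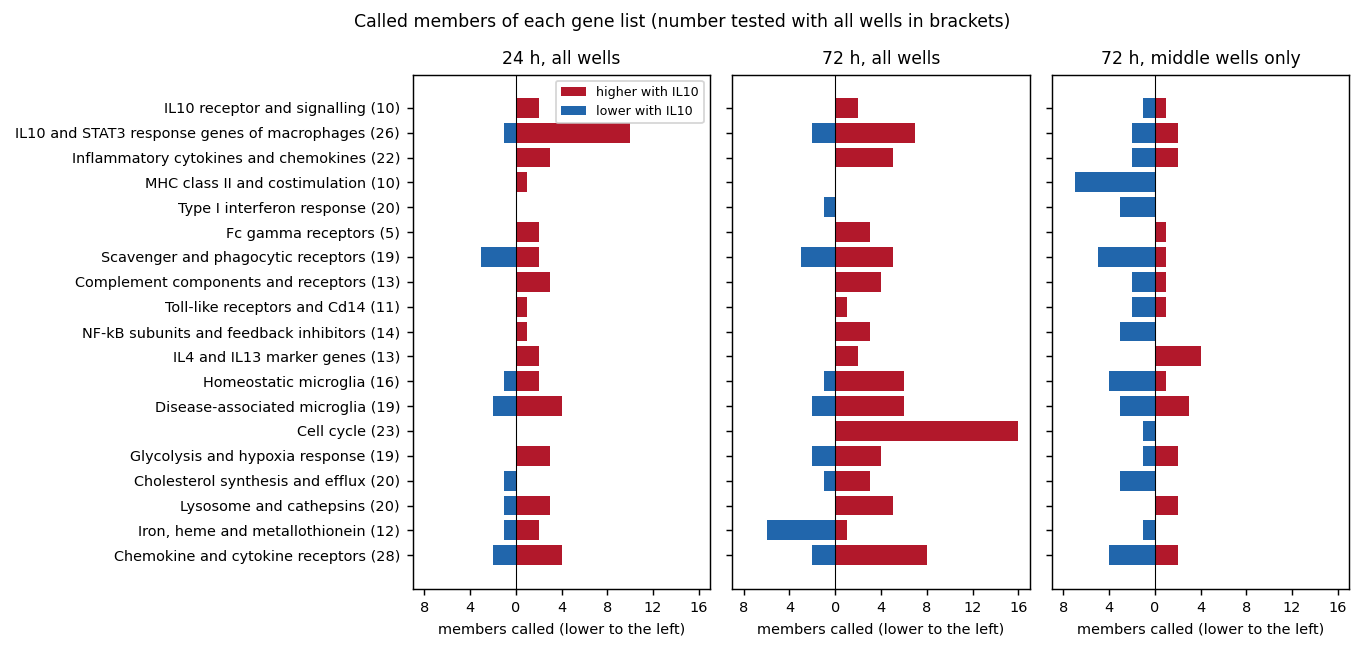
Number of members called higher (red, to the right) and lower (blue, to the left) with IL10 for 19 gene lists, at 24 h, at 72 h and at 72 h in middle wells only. The cell cycle list goes from 0 called genes at 24 h to 16 at 72 h, and to 1 called lower in middle wells.

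The study's own co-expression modules were built on these samples among others, so their counts are not independent evidence. At 24 h the module PI_turquoise had 6 of 37 tested genes higher and 0 lower, and TQ_turquoise had 8 higher and 13 lower of 143. The other 29 of the 31 module lists used here had at most 4 genes called in either direction. Of all genes, 1.19% were higher and 0.551% lower.

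In the fit over all wells more genes passed the test at 72 h than at 24 h, 916 higher (7.21%) and 1034 lower (8.14%). With only the plates that held both groups the order was reversed, with 271 calls at 72 h and 545 at 24 h. The largest rises at 72 h included genes whose untreated levels differed between border and middle wells. Cell cycle genes were among them. Summed over 24 cell cycle genes, the untreated border wells had 757.3, 1297 and 1849 CPM, the untreated middle wells 2678, 3153 and 3610 CPM, and the IL10 middle wells 2909, 3207 and 3660 CPM. The single IL10 border well had 578.4 CPM and the single IL13 border well 957.8 CPM. Middle wells with and without IL10 overlapped, and the 2 border wells with a cytokine lay below all untreated middle wells. In the fit over all wells, 16 of 23 cell cycle genes were called higher and 0 lower with a median of 2.08, whereas in middle wells 0 were higher and 1 lower, with a median of 0.01. With a term for border wells added to the fit over all wells, 6 were higher and 0 lower, where 4.83% of all genes were higher and 6.89% lower.

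**Figure D4:**
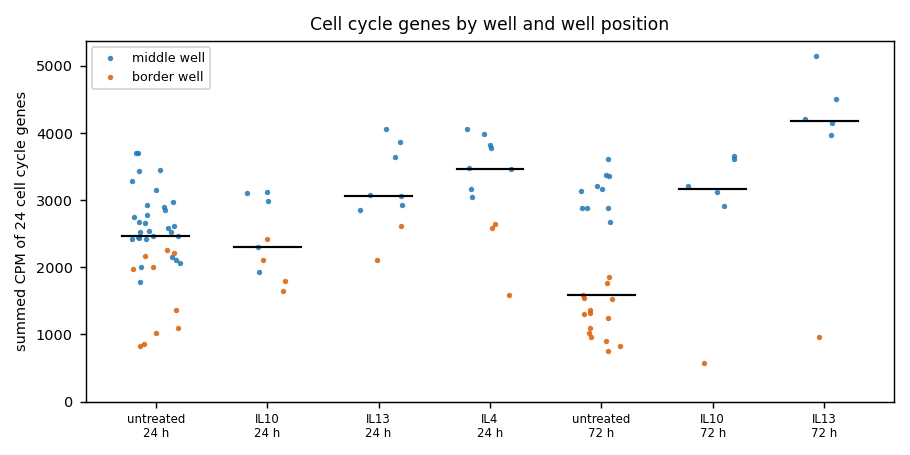
Summed CPM of 24 cell cycle genes in every well, with middle wells in blue, border wells in orange and the group median as a black line. At 72 h the border wells sit at or below 1849 CPM and the middle wells at or above 2678 CPM.

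Ube2c, a ubiquitin-conjugating enzyme of mitosis, was the second largest named rise at 72 h (4.89 ± 0.62). It had 0, 0.377 and 3.41 CPM in untreated border wells, 96.7, 118 and 158 CPM in untreated middle wells and 1.08, 142 and 256 CPM with IL10. The lowest IL10 value was that of the border well, and the difference in middle wells was 0.47 ± 0.28 (limma, adjusted p = 0.25). The mitotic genes Pbk, Cdca3, Prc1, Cenpe and Cenpf rose by 3.55 to 4.41 in the fit over all wells and had differences of -0.61 to 0.71 in middle wells, none of which passed. Tmem176a (4.88 ± 0.51), the sodium-proton exchanger Slc9a9 (4.54 ± 0.34), Tlr1 (3.6 ± 0.44), Lpp (3.52 ± 0.44) and the growth factor Pdgfc (3.51 ± 0.57) also did not pass in middle wells. Slc9a9 had -0.73 ± 0.27 there (limma, adjusted p = 0.053).

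These 5 genes differed from most of the mitotic genes in the IL10 border well. Slc9a9 had 72.7 CPM in that well, against 0, 1.16 and 11.3 CPM in untreated border wells and 54.6, 81 and 105 CPM in untreated middle wells. Lpp had 207.8 CPM there against at most 147 CPM in untreated border wells, and Tmem176a had 116.1 CPM against at most 62 CPM. Tlr1 (18.04 against at most 15.8 CPM) and Pdgfc (70.01 against at most 18.2 CPM) followed the same order. The IL10 border well thus lay above all 15 untreated border wells for each of the 5, while for Ube2c, Pbk, Prc1, Cenpe and Cenpf it lay within their range. Cdca3 was the exception among the mitotic genes, with 14.81 CPM against at most 6.42 CPM. This rests on 1 well, was singled out after its values were seen and has no test.

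The number of genes detected also differed between the groups. Above 5 CPM, IL10 middle wells had 7792, 8043 and 8423 genes, untreated middle wells 8846, 9072.5 and 9242, and untreated border wells 7221, 7788 and 8593. The IL10 border well had 6761. Median depth at 72 h was 2.48 M reads in IL10 wells and 5.89 M reads in untreated wells. In the middle-well fit the median log2 fold change of all genes was -0.35, against -0.07 in the fit over all wells, and 285 genes were called higher (2.36% of 12089) and 1671 lower (13.8%). The part of this shift in single falls at 72 h was not tested. Of the 916 genes higher in the fit over all wells, 908 were tested in middle wells, 592 kept their sign and 118 were called higher again, while 22 were called lower. Of the 1034 lower genes, 1006 were tested, 923 kept their sign, 451 were called lower again and 6 were called higher.

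**Figure D5:**
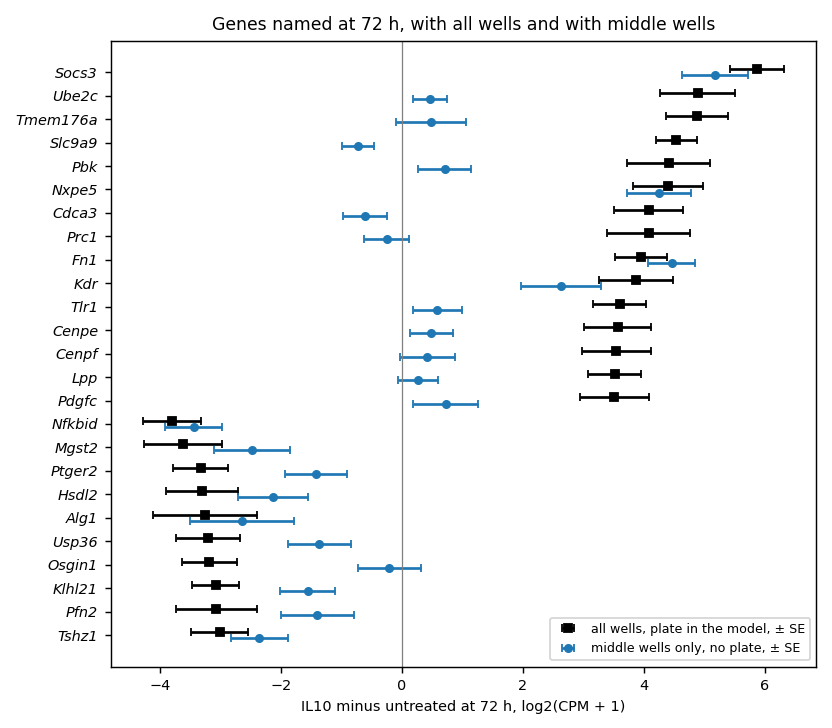
Log2 difference ± SE between IL10 and untreated wells at 72 h for the 25 named genes, in the fit over all wells (black) and in middle wells only (blue). Socs3, Nxpe5, Fn1 and Kdr have large positive values in both, while the other 11 rises lie between -0.73 and 0.72 in middle wells.

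Socs3, Nxpe5, Fn1 and Kdr were the 4 named rises called in both fits. Nxpe5 had 0, 0.801 and 10.1 CPM in untreated wells and 0, 86.6 and 251 CPM with IL10 (4.40 ± 0.58 over all wells and 4.25 ± 0.52 in middle wells). Its IL10 well at 0 was replicate 5, the border well, and the other 5 IL10 wells lay above all untreated wells. Fn1 had 0.25, 3.71 and 26.3 CPM in untreated wells and 29.6, 137 and 170 CPM with IL10 (3.96 ± 0.43 and 4.46 ± 0.38). Its groups did not overlap. Kdr had 0, 0.17 and 39.2 CPM in untreated wells and 0, 34.6 and 103 CPM with IL10 (3.87 ± 0.61 and 2.63 ± 0.67), with 3 of 6 IL10 wells above all untreated wells.

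List members and genes called at 24 h were high again at 72 h in both fits for Il4ra, Spp1 and Fabp5. Il4ra had 5.82, 30.3 and 90.8 CPM in untreated wells and 84.0, 185 and 360 CPM with IL10 (2.29 ± 0.30 and 2.81 ± 0.33). Spp1 had 362.6, 512.9 and 1038 CPM in untreated wells and 1249, 2788 and 3046 CPM with IL10, with no overlap (2.10 ± 0.21 and 2.64 ± 0.43). Fabp5 had log2 fold changes of 1.72 ± 0.20 and 1.01 ± 0.19. Further genes called higher in both fits were Ednrb (2.86 ± 0.57 and 2.86 ± 0.51), Gcnt2, Ndrg1, Ccl12, Cxcl16 (1.11 ± 0.22 and 1.61 ± 0.26), Csf2rb (0.79 ± 0.18 and 1.31 ± 0.26), Fcgr2b (1.53 ± 0.24 and 0.70 ± 0.24) and C1qa (1.42 ± 0.14 and 0.72 ± 0.22). Their lists did not rise as a whole in middle wells. There 1 of 13 complement genes was higher and 2 lower, against 4 and 0 over all wells. Of 28 chemokine and cytokine receptors 2 were higher and 4 lower there, against 8 and 2 over all wells. Of all genes in middle wells, 2.36% were higher and 13.8% lower.

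Fcrls, an Fc receptor-like gene typical of microglia, separated the groups at 72 h. Untreated wells had 8.56, 420.2 and 715.6 CPM and IL10 wells 1464, 1997 and 2242 CPM. All 6 IL10 wells, the border well included, lay above all 25 untreated wells (2.55 ± 0.39 over all wells, limma, adjusted p = 3e-07, and 2.10 ± 0.35 in middle wells). Cd5l, a secreted macrophage protein that binds lipids, had 0, 4.70 and 22.3 CPM in untreated wells and 9.96, 53.6 and 79.8 CPM with IL10 (3.02 ± 0.47 and 2.62 ± 0.48). For Cd5l 5 of 6 IL10 wells lay above all untreated wells. Ch25h, which makes the sterol 25-hydroxycholesterol, was also called in both fits (2.45 ± 0.46 and 2.84 ± 0.39), and it was singled out after its values were seen.

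Of 16 tested homeostatic genes, 6 were called higher and 1 lower over all wells with a median of 0.68, beside 7.21% and 8.14% of all genes. In middle wells 1 of 15 was higher and 4 were lower with a median of -0.22, beside 2.36% and 13.8% of all genes. With the border-well term 3 were higher and 0 lower. P2ry12 had 2.00 ± 0.48 over all wells and -0.51 ± 0.48 in middle wells, and Gpr34 was called lower in middle wells. Counts of other lists also differed with the choice of wells. The IL10 and STAT3 response list had 7 of 26 higher and 2 lower over all wells, and 2 of 25 higher (Socs3 and Il4ra) and 2 lower (Cd14 and Tnip3) in middle wells. Inflammatory cytokines and chemokines had 5 of 22 higher and 0 lower over all wells. In middle wells 2 were higher (Ccl12 and Cxcl16) and 2 lower (Cxcl9 and Nos2), so that in neither list was the share called lower above that of all genes.

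Genes of MHC class II and costimulation were called in neither direction over all wells by limma, with 0 also at an unadjusted p under 0.05. In middle wells 7 of 10 were called lower with a median of -1.66, beside 13.8% of all genes and a median of -0.35. H2-Ab1, an MHC class II beta chain, had 4.84, 12.33 and 20.7 CPM in untreated middle wells, 0, 0 and 8.93 CPM in untreated border wells and 0, 0.273 and 1.87 CPM with IL10. All IL10 wells thus lay below all untreated middle wells, but within the range of untreated border wells. Nos2, the inducible nitric oxide synthase, followed the same order, with 7.77, 9.42 and 13.8 CPM in untreated middle wells, 0, 0 and 1.38 CPM in untreated border wells and 0, 0.135 and 0.601 CPM with IL10. Those middle wells all came from plate MGm160930B, which held no IL10 well.

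Among scavenger receptors, Cd36, Marco and Clec7a were called lower in both fits. Cd36 had 606.6, 785.7 and 890.4 CPM in untreated middle wells, 526.8, 2054 and 3259 CPM in untreated border wells and 235.2, 307.4 and 612.1 CPM with IL10 (-2.13 ± 0.20 and -1.40 ± 0.29). All 6 IL10 wells were below the untreated median. Marco fell by 1.67 ± 0.40 over all wells and by 2.56 ± 0.59 in middle wells, and Clec7a by 0.82 ± 0.19 and 1.60 ± 0.36. The iron exporter Slc40a1 fell by 1.78 ± 0.35 and 1.80 ± 0.29, with 77.3, 215.1 and 728.9 CPM in IL10 wells against 39.2, 757.1 and 2333 CPM. It was 1 of 6 iron genes called lower over all wells and the only one called in middle wells. Fth1 fell by 1.31 ± 0.18 over all wells and had 0.24 ± 0.30 in middle wells, and its untreated border wells (16790, 28220 and 30560 CPM) were all above its untreated middle wells (5662, 6728 and 7570 CPM).

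Nfkbid, which encodes the nuclear inhibitor of NF-kB IkBNS, had the largest named fall at 72 h. Untreated wells had 0, 16.3 and 99.4 CPM and IL10 wells 0, 0 and 2.12 CPM, and all 6 IL10 wells lay below the untreated median. The log2 fold change was -3.81 ± 0.48 over all wells (limma, adjusted p = 1.3e-09) and -3.45 ± 0.48 in middle wells (limma, adjusted p = 3.3e-07). At 24 h its levels with IL10 were 10.4, 14 and 37.3 CPM against 4.96, 25.3 and 69.8 CPM. Mgst2, a glutathione transferase of the microsomes (-3.63 ± 0.65), the prostaglandin receptor Ptger2 (-3.33 ± 0.45), Hsdl2 (-3.30 ± 0.59), the mannosyltransferase Alg1 (-3.26 ± 0.86), Klhl21 (-3.08 ± 0.39) and the transcription factor Tshz1 (-3.01 ± 0.47) were lower in both fits. Without plate MGm161010C the call of Alg1 was lost, and without MGm160930A those of Mgst2 and Pfn2. Usp36 (-3.21 ± 0.52), Osgin1 (-3.19 ± 0.46) and the profilin Pfn2 (-3.07 ± 0.67) did not pass in middle wells.

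The change of the IL10 effect from 24 h to 72 h was tested directly and called for 511 genes upward (4.02%) and 592 downward (4.66%). The IL10 wells at 72 h came from a cell lot that none of those at 24 h came from, so for IL10 the time and the cell lot cannot be told apart. The 5 largest upward differences were those of Ube2c (5.05), Pbk (4.82), Slc9a9 (4.79), Prc1 (4.16) and Cenpf (4.1), and none of them passed in middle wells. Downward, Nfkbid (-3.51), the planar polarity gene Prickle3 (-3.87) and the small nucleolar RNA host gene Snhg3 (-3.54) were called in both fits, as was the mitochondrial gene mt-Nd3 (-4.98, limma, adjusted p = 0.049), whose call was lost without any of 12 of the 15 single IL10 wells. Usp36 (-3.76) did not pass in middle wells. Lrg1 had a smaller effect at the later time. At 72 h it was at 0 in 4 of 6 IL10 wells and at 22 and 24 CPM in the other two, and its effect fell by 3.31 on the log2 scale (limma, adjusted p = 1.2e-07) and by 3.13 in middle wells. For Spp1 (0.07 over all wells and 0.26 in middle wells) and Ednrb (-1.03 and -1.04) the difference between times did not pass the test in either fit. For Fabp5 it did not pass over all wells (-0.04) and was called in middle wells (-0.76, limma, adjusted p = 0.044).

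IL10 and IL13 could be compared at both times with wells that shared plates, and at 72 h also with like positions, since 5 of 6 wells of each cytokine were middle wells. IL10 was above IL13 for 95 genes (0.748%) and below it for 99 (0.779%) at 24 h, and above it for 323 (2.54%) and below it for 855 (6.73%) at 72 h. The IL10 wells at 72 h had medians of 2.48 M reads and 7968.5 genes above 5 CPM, against 4.25 M reads and 8570 genes with IL13. The median log2 fold change of all genes there was -0.19, and with centred values 443 genes were higher and 630 lower. The part of depth in these counts was not tested. Against IL4 at 24 h, 197 genes were higher with IL10 (1.55%) and 218 lower (1.72%). The IL10 wells at 24 h are the same in the comparisons with IL13 and IL4. All 10 genes named for each of the 3 comparisons were also called in middle wells, with and without plate in the model. Cell cycle genes were called in none of the 3 comparisons (limma). At an unadjusted p under 0.05 none of the 23 was higher with IL10. Lower at that threshold were 5 (IL13 at 24 h), 5 (IL4) and 6 (IL13 at 72 h). The share of all genes at the unadjusted threshold was not computed, so these counts do not set the list apart from other genes.

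Socs3 was at 1.44, 5.00 and 7.37 CPM with IL13 and at 0.881, 4.14 and 16.7 CPM with IL4 at 24 h, so neither overlapped IL10. The difference between IL10 and IL13 was 5.44 ± 0.40 at 24 h and 6.17 ± 0.49 at 72 h. Lrg1, Gcnt2, Nxpe5 and Ednrb were the other 4 named genes above IL13 at 24 h, by 3.30 to 4.53, and Lrg1, Gcnt2, Nxpe5 and Il4ra those above IL4, by 3.61 to 4.51. Il4ra had 7.37, 15.44 and 25.6 CPM with IL13 and 7.51, 12.7 and 17.5 CPM with IL4, both below all IL10 wells. At 72 h the other 4 were Tmem176a (3.86 ± 0.56), Cd5l (3.38 ± 0.52), the NAD-consuming ectoenzyme Cd38 (3.37 ± 0.44) and Kdr (3.34 ± 0.67).

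Marker genes of IL4 and IL13 were lower with IL10 than with those cytokines, which follows from their choice as markers. Against untreated wells at 24 h, 2 of the 13 tested markers were higher with IL10 and 0 lower, beside 1.19% and 0.551% of all genes. Their median was 0.25. In middle wells without plate in the model 4 were higher and 0 lower. At 24 h, 8 of 13 tested markers were lower with IL10 than with IL13 and 1 was higher, and 11 were lower and 1 higher than with IL4. The higher gene was Il4ra in each. Arg1, which splits arginine, had 4.24, 7.51 and 16.5 CPM with IL10, 49.8, 176 and 236 CPM with IL13 and 315.6, 586.9 and 1050 CPM with IL4. Retnla, a secreted protein of alternatively activated macrophages, had 0.730, 3.93 and 10.6 CPM with IL10, 37.3, 60.8 and 137 CPM with IL13 and 215.3, 575.2 and 1173 CPM with IL4. In neither gene did the IL10 wells overlap the IL13 or IL4 wells. Tmem26, Flt1 and Rnase2a completed the 5 named genes that were lower with IL10 than with IL13 (by 3.21 to 4.39), and Mgl2, Tmem26 and Cldn11 those that were lower than with IL4 (by 5.38 to 5.95). At 72 h the named genes were Retnla (-6.32 ± 0.53), Arg1 (-6.17 ± 0.50), Tmem26 (-6.03 ± 0.62), Rnase2a (-5.17 ± 0.44) and Cldn11 (-4.85 ± 0.56).

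The study's module SA_salmon, chosen on these samples, had 2 of 27 tested genes higher with IL10 than without at 24 h and 0 lower, 18 lower than with IL13 and 25 lower than with IL4. At 72 h 18 of the 27 were lower than with IL13. Against untreated middle wells at 72 h, however, Retnla (4.65 ± 0.46), Arg1 (2.83 ± 0.40) and Chil3 (2.42 ± 0.37) were called higher with IL10. Retnla was at 0 in all 10 untreated middle wells and at 0, 16.5 and 52.0 CPM in the IL10 wells, against 99.6, 1283 and 1673 CPM with IL13. In the fit over all wells these 3 did not pass (0.84, 0.27 and 0.40), and untreated border wells reached 31 CPM for Retnla and 85.5 CPM for Arg1.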

How the data were processed

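Libraries were made from the 3′ ends of amplified RNA (QuantSeq), with barcoded cDNA amplified in pools. Per their methods, transcripts of Ensembl build 81 were the reference that the authors gave to Salmon 0.7.1, and the submitters' processing notes in the labels name genome build mm8. The deposited values are CPM per gene, in which whole reads could not be recovered, and depth per well was taken from the smallest step between values. That precision limits genes of a few CPM, and intervals from counts were not computed. The deposited table held 45581 genes, and 678 columns of other conditions were not used.

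Genes above 5 CPM in at least 4 of 106 wells (12707) were fitted on log2(CPM + 1) with limma 3.58.1 in R 4.3.3 (empirical Bayes with trend), with the group and the plate (10 plates) in the model. On that scale the change of low genes is understated. P-values were adjusted by the Benjamini-Hochberg method over all genes, and the script was tested on simulated data. No pair of wells had identical values.

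Named against untreated wells were, at each time, the 15 largest rises and 10 largest falls with at least 5 CPM on average in the higher group and the same sign on every shared plate. For the other comparisons the 5 largest in each direction were named, and members of the lists may also be named. Predicted genes were not named. Some list members that were called are not reported here by name. The members and lists were chosen with earlier results of these data known. Gene positions are from the GRCm38 annotation (104 of 104 genes looked up) and promoters from RefSeq. Pseudocounts of 0.5 and 5, other filters, other covariates, centring and leaving out wells or plates were tried. Samples of other treatments and of mice were left out.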

Additional observations from a re-analysis of the deposited data

Results flagged for a closer look

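In 7 of 50 gene and group combinations tested, 1 IL10 well lay far from the others of its group, where chance gives about 1 in 20. Replicate 5 at 72 h, the border well, was such a well for 6 genes. It was the lowest for Ube2c (1.081 CPM, with the next well at 109.1), Nxpe5 (0 CPM, next 48.4), Prc1 (0.591 CPM, next 44.0) and Cenpe (0 CPM, next 18.7). It was the highest for Mgst2 (22.6 CPM, next 2.12) and Pfn2 (7.81 CPM, next 0.353). At 24 h replicate 7 was the lowest for Ccl12 (0.566 CPM, next 7.03).

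The 10 genes named for the change of the IL10 effect from 24 h to 72 h were chosen as the largest called differences, so that their calls restate the choice. On the log2 scale the difference was 5.05 for Ube2c, 4.82 for Pbk, 4.79 for Slc9a9, 4.16 for Prc1 and 4.1 for Cenpf. It was -4.98 for mt-Nd3, -3.87 for Prickle3, -3.76 for Usp36, -3.54 for Snhg3 and -3.51 for Nfkbid. The call of mt-Nd3 had an adjusted p of 0.049 (limma). In middle wells the calls of Ube2c, Pbk, Prc1, Cenpf and Usp36 were lost and that of Slc9a9 changed sign (-0.73, not called), while the other 4 were called again. IL10 wells of the 2 times came from different cell lots.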

How the results depend on the processing

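In all, 2646 alternative values were computed for counts of calls, members called in each list and named genes. Of these, 2346 were kept, 126 lost a call, 170 counts moved by over 1.5 times or away from 0 and 4 values changed sign. A named gene was kept if its sign and call held. A count was kept if its total stayed within 1.5 times, or at 0, whatever its split by direction. The 72 h count was thus kept in middle wells (1956 against 1950), although 916 higher and 1034 lower became 285 and 1671. The genes called at 24 h (221) numbered 103 with a fold limit of 1 on the log2 scale, 545 on plates holding both groups, 144 without plate MG160901, 118 without MG160831, 69 without MGm160926A, 131 in middle wells without plate and 321 in middle wells with plate. At 72 h (1950) they numbered 1134 (332 higher, 802 lower) without plate in the model, 844 with IL10 and untreated wells only and 271 on plates holding both groups. For the difference between times (1103) they numbered 624 without plate and 707 with a border-well term. IL10 against IL13 at 24 h (194) gave 93 without plate and 75 in middle wells, IL10 against IL4 (415) gave 211 and 233, and IL10 against IL13 at 72 h (1178) gave 565 and 777. With centred values the last gave 443 higher and 630 lower, against 323 and 855. Leaving out single IL10 wells gave 163 to 206 calls at 24 h, 1707 to 2035 at 72 h and 925 to 1171 for the difference between times. In middle wells the 72 h differences of Slc9a9 (-0.73), Cdca3 (-0.61) and Prc1 (-0.25) and the time difference of Slc9a9 (-0.73) changed sign. The middle-well fits and the border-well term were added after seeing the data, and the cause of these changes was not tested. No paired analysis was possible because the labels give no replicate numbers, and plate, which is in the model, was the block used. Depth of 1.212 to 3.714 M reads limits low genes at 72 h.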
